A study of Canis lupus familiaris with 33 samples.

Results

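Regions of the dog genome with MBD-seq peaks in at least 2 of the digestive organs colon, stomach, pancreas and liver, and with no peak in 7 other tissues, were examined in adult beagles. All peaks of 11 tissue lists that shared at least 1 base were merged into 450791 regions on the 38 autosomes. Of these, 1450 met the rule, or 0.322% of all autosomal regions (95% Wilson interval 0.306% to 0.339%, counting error only). They are called digestive-only regions below. They were chosen by the presence and absence of peaks in the lists, so their numbers, organs and folds are given here as a description, and no difference between conditions was tested.

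Genomic DNA was sheared to about 300 bases and captured on beads that carry a methyl-CpG-binding domain (MBD), and the fractions released at 600 and 800 mM in the elution series were sequenced. Each of the 11 tissues, healthy and untreated, had 2 MBD libraries and 1 input library, and both MBD libraries shared 1 deposited peak list. The spread between replicates and the read depth are therefore unknown here. The other 7 tissues were cerebellum, cerebrum, kidney, lung, mammary gland, ovary and spleen.

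The labels name 3 dogs, of which 1 was male and 2 were female, while 4 animal names occur in the library titles. Colon and stomach each had MBD libraries of animals 679 and jj82, both labelled female. Pancreas and liver had libraries of 679, labelled female, and jj8, labelled male, as had cerebellum, cerebrum, kidney, lung and spleen. Mammary gland and ovary had libraries of 244 and 679, both female. The input of pancreas came from 679 and those of colon, stomach and liver from jj8, whose input libraries were labelled female. The age of the dogs is not given in the labels. The name jj82 appeared in colon and stomach alone. Whether it is an animal apart from jj8 is not given in the labels. If it is, what colon and stomach share as organs and what they share through this animal cannot be told apart.

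DNA methylation in mammals lies mostly on cytosines of CpG dinucleotides and is kept through cell division by a maintenance methyltransferase. The MBD protein binds fragments with several methylated CpGs, and the high-salt fractions hold the more densely methylated ones. Most methylated CpGs are methylated in every tissue, and differences between tissues are found largely at enhancers and other regulatory DNA, where methylation and activity tend to be opposed. The epithelia of colon, stomach, pancreas and liver all derive from the endoderm, as does that of the lung, and each organ also holds vessels, connective tissue, nerve and immune cells. In such bulk tissue, methylation in fewer cells and lighter methylation in all cells cannot be told apart. The identity of the tissues was not checked against marker genes, because no gene annotation on the build of the files was used here.

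Few regions with digestive peaks were free of peaks elsewhere. Of 247490 autosomal regions with a peak in at least 2 of the 4 organs, 0.586% had none in the other 7 tissues. The share was lower the more digestive organs carried a peak. It was 3.15% of the regions of exactly 2 organs (1146 of 36347, 95% Wilson interval 2.98% to 3.34%), 0.587% of those of exactly 3 organs (244 of 41577, 0.518% to 0.665%) and 0.0354% of those of all 4 organs (60 of 169566, 0.0275% to 0.0455%). Of the regions with a peak in all 4 organs, 71.7% had a peak in every other tissue as well. The regions of all 4 organs alone were 0.0133% of all autosomal regions. The number of members depended on single lists, with 721 when liver was left out, 843 without colon, 877 without stomach and 2284 without spleen. It was 47 when every counted digestive peak had to be in the upper 50% of its list by fold.

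**Figure D1:**
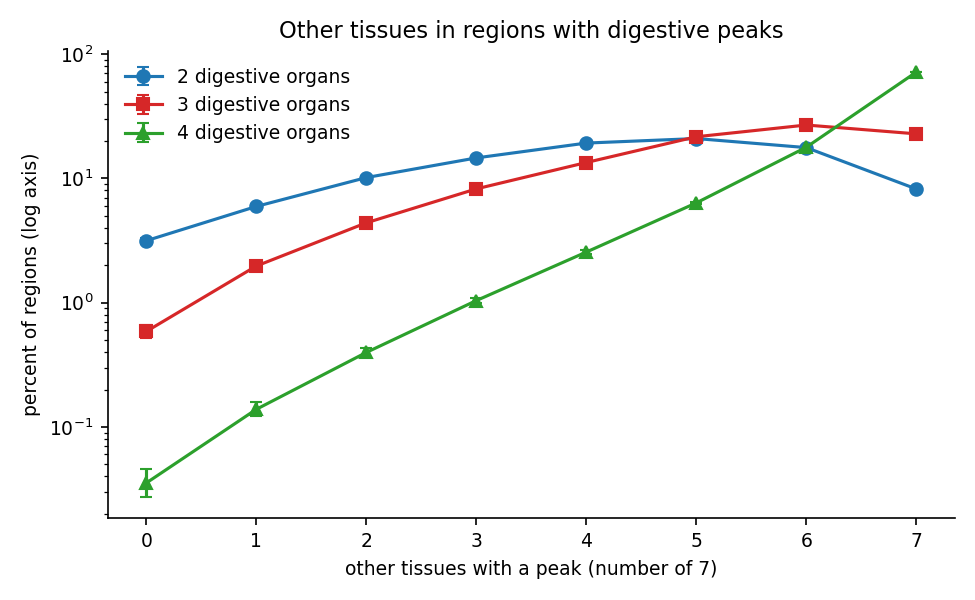
Percent of autosomal regions (vertical log axis) by the number of other tissues with a peak (horizontal axis, 0 to 7), for regions with a peak in exactly 2, 3 or 4 digestive organs. Bars are 95% Wilson intervals. The points at 0 other tissues are the digestive-only regions, at 3.15%, 0.587% and 0.0354%.

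The next step outward from the rule held 3217 regions, with peaks in at least 2 digestive organs and exactly 1 other tissue. That tissue was spleen in 827 of them (25.7%), ovary in 580, cerebellum in 439, lung in 430, kidney in 418, mammary gland in 314 and cerebrum in 209. Lung, the other tissue with an endodermal epithelium, thus stood beside cerebellum and kidney by number, and cerebrum was last. These regions made up 0.343% of all autosomal regions of spleen, 0.180% of those of lung, 0.173% of ovary, 0.150% of kidney, 0.141% of cerebellum, 0.135% of mammary gland and 0.0747% of cerebrum. The folds on the 2 sides of the rule were close. Liver had a median relative fold (the fold of a peak divided by the median fold of its list) of 0.702 in digestive-only regions, 0.707 in regions with 1 other tissue and 0.605 in the 4500 regions of liver alone. Colon had 0.645, 0.631 and 0.590 in the same order, pancreas 0.616, 0.616 and 0.567, and stomach 0.559, 0.590 and 0.525.

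Liver carried a peak in 1012 of the 1450 digestive-only regions (69.8%), colon in 847 (58.4%), stomach in 829 (57.2%) and pancreas in 576 (39.7%). Liver, which makes bile and processes what the gut absorbs, also had the longest of the 4 lists, 306766 peaks, and 4500 regions in which no other tissue had a peak, against 1256 in colon, 816 in stomach and 418 in pancreas. As a share of the autosomal peaks of each list, peaks in digestive-only regions were 0.344% in liver, 0.338% in colon, 0.308% in stomach and 0.224% in pancreas. Measured this way liver and colon were alike, and pancreas was the lowest.

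Most digestive-only regions joined only a pair of organs: 1146 (79.0%) had peaks in exactly 2, 244 (16.8%) in exactly 3 and 60 (4.14%) in all 4. Colon and liver was the most frequent pair, with 328 regions, or 22.6% of the members (95% Wilson interval 20.5% to 24.8%). Colon and stomach, the hollow organs of the tract, followed with 246 regions (17%, 15.1% to 19%). That share depended on the lists used: it was 48.3% of the members when liver was left out, 26.0% without pancreas and 9.74% with every list cut to its upper 50% by fold. Pancreas and liver, both glands that bud from the foregut, had 211 (14.6%), and stomach and liver 203 (14.0%).

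Stomach and pancreas shared 123 regions (8.48%), and colon and pancreas 35 (2.41%, 1.74% to 3.34%), the fewest of the 6 pairs. Among the sets of 3 organs, colon, stomach and liver had 97 regions, stomach, pancreas and liver 66, colon, pancreas and liver 47, and colon, stomach and pancreas 34. The sets with liver were thus the larger ones, and the set without it the smallest.

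**Figure D2:**
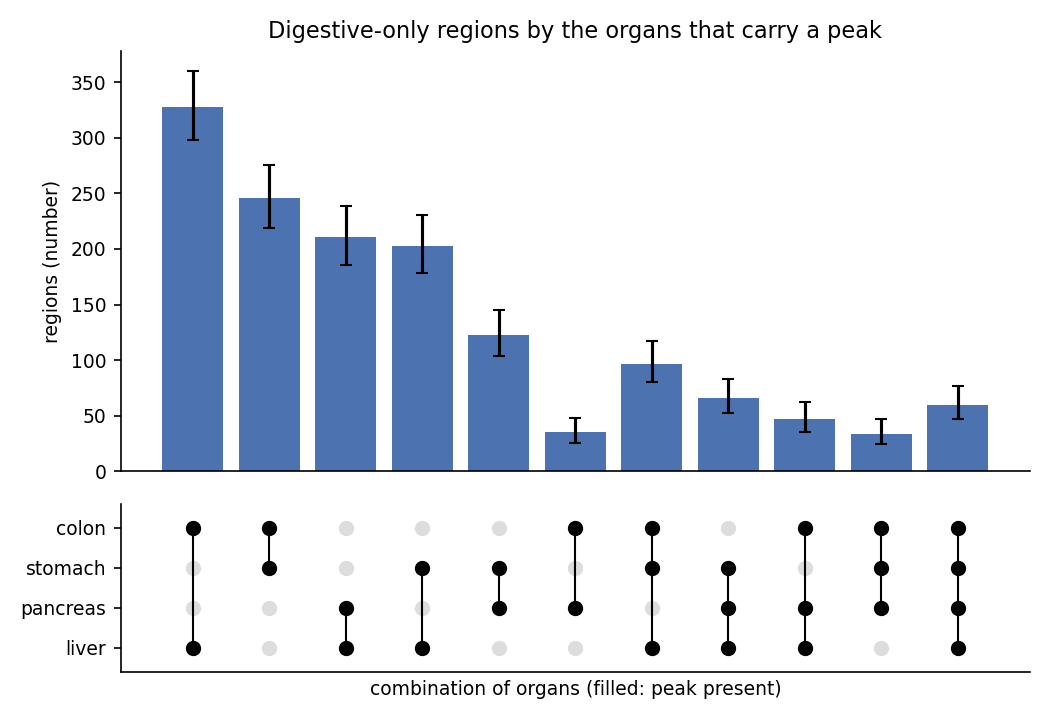
Number of digestive-only regions (vertical axis) for each combination of organs with a peak, marked by filled circles below each bar. Bars carry 95% Wilson intervals (counting error only). Colon with liver is the tallest at 328, and colon with pancreas, at 35, is the lowest of the pairs.

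A digestive partner was not in general the most frequent one when regions with peaks in exactly 2 of all 11 tissues were counted. Among the 55 pairs of tissues, colon and liver ranked 20, colon and stomach 26, pancreas and liver 31, stomach and liver 32, stomach and pancreas 40, and colon and pancreas 55, the last. For colon, liver was the first of 10 partners (328 of 1549 regions, 21.2%), spleen came next with 279, then stomach, and pancreas was the last. For stomach the first partner was ovary with 349 of 1873 regions, and colon came second with 246.

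For pancreas the order was ovary with 216 of 1096 regions, liver with 211, cerebellum with 155 and stomach with 123. For liver, ovary (1518 of 6250 regions), cerebellum (1011), lung (906), kidney (795), spleen (704) and cerebrum (454) all came before colon. Ovary and cerebellum had the longest lists, with 370761 and 359065 peaks, and the part of list length in this order was not tested.

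The peaks of digestive-only regions were weak for their lists. The fold per organ was taken as the highest of its peaks in the region. In colon it ran from 2.69 to 17.8 with a median of 5.26, in stomach from 1.85 to 17.1 with a median of 4.88, in pancreas from 2.49 to 17.2 with a median of 4.89, and in liver from 2.48 to 15.8 with a median of 5.02. The medians of the whole lists were 8.15, 8.73, 7.94 and 7.15. The relative fold was over 1 in 158 of 1012 regions in liver (15.6%), 119 of 847 in colon (14.0%), 38 of 576 in pancreas (6.60%) and 30 of 829 in stomach (3.62%). The typical peak of these regions stood at the percentile 23.2 of its list by fold in liver, 19.5 in colon, 16.6 in pancreas and 13.3 in stomach.

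The median −log10 p-value of the authors' peaks was 12.5 in liver, 12.1 in colon, 12.1 in pancreas and 11.4 in stomach, against 23.5, 26.1, 30.6 and 31.7 in the whole lists. Weak peaks were the rule for all regions of few tissues. In the 100895 other regions with peaks in 2 to 4 tissues, the median relative fold of the same organs was 0.642 in liver, 0.590 in colon, 0.584 in pancreas and 0.564 in stomach. The members lay above these values in liver, colon and pancreas and slightly below in stomach. Over all peaks of a region the members were lower. Their mean relative fold had a median of 0.647, against 0.715 in the other regions with 2 to 4 tissues, and their lowest relative fold a median of 0.536, against 0.581.

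Every peak was above its list median in 27 of the 1450 members (1.86%, 95% Wilson interval 1.28% to 2.70%), against 0.503% of the other regions with peaks in 2 to 4 tissues. Since fewer peaks have to pass in a region of fewer tissues, and most members have 2, the share was also taken at an equal number. It was 2.09% in members of 2 organs (24 of 1146, 1.41% to 3.1%) and 1.00% in other regions with 2 tissues (445 of 44315). The median lowest relative fold went the other way, 0.536 in members of 2 organs and 0.602 in other regions with 2 tissues.

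The median relative fold was higher where more organs shared the region, except that in pancreas it was equal for 3 and 4 organs. Its median in liver was 0.605 in regions of liver alone, 0.684 in members of 2 organs, 0.744 in members of 3 and 0.814 in members of 4. In colon the values were 0.590, 0.632, 0.673 and 0.718, in stomach 0.525, 0.554, 0.587 and 0.675, and in pancreas 0.567, 0.591, 0.663 and 0.663. The middle 50% of the regions overlapped between neighbouring classes in every organ. A rise with the number of tissues was not particular to members. The mean relative fold over the peaks of a region had medians of 0.634, 0.692 and 0.764 in members of 2, 3 and 4 organs. In other regions with 2, 3 and 4 tissues the medians were 0.694, 0.720 and 0.739.

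**Figure D3:**
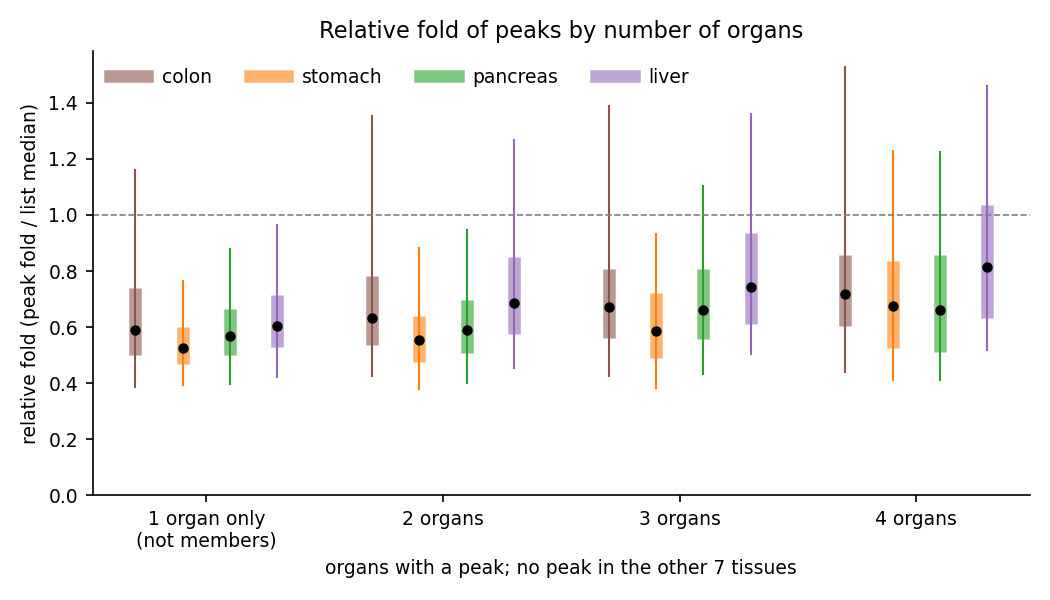
Relative fold (vertical axis, fold of a peak divided by the median fold of its list) in regions with a peak in 1 organ alone, which are not members, and in digestive-only regions of 2, 3 and 4 organs. Points are medians over regions, thick bars the middle 50% and thin lines the 5th to 95th percentiles. The dashed line at 1 is the list median, and all medians lie below it, the highest at 0.814 for liver in regions of 4 organs.

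Digestive-only regions were short, with a median width of 265 bases (middle 50% from 232 to 346, range 189 to 1990). Members of 2 organs had a median of 260 bases, those of 3 organs 282 and those of 4 organs 331. Other regions were wider at an equal number of tissues for 2 and 3 tissues, with medians of 286 and 308 bases, and had 321 bases for 4 tissues. Single peaks of the same organ went the other way. Their median width in members and in other regions with 2 to 4 tissues was 263 and 234 bases in colon and 225 and 216 in stomach. In pancreas it was 213 and 204 bases, and in liver 245 and 227. Yet 108 members (7.45%) were wider than 600 bases, against 4.67% of the other regions with 2 to 4 tissues. Colon and stomach regions were the widest pair, with a median of 340 bases, and stomach and pancreas regions the narrowest, with 224.

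The lists differed in their shortest peak, which bears on presence. All 4 digestive lists held peaks under 200 bases, as did cerebellum and spleen, while the shortest peak of the other 5 lists was 210 to 218 bases long. Of the members, 93 (6.41%, 95% Wilson interval 5.26% to 7.79%) were narrower than 210 bases, against 0.191% of the other regions with 2 to 4 tissues. A region with a peak of any of those 5 lists cannot be narrower than 210 bases. The contrast is thus largely set by the rule and the lists. A total of 1272 members were at least 218 bases wide. The part of the shortest peak width in the choice of members was not tested beyond these counts.

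Where organs shared a digestive-only region, the summits of their peaks, the bases of highest signal, lay close together. Members are short regions of merged peaks, so this closeness follows in part from the rule itself. In the 437 regions with peaks in colon and stomach, the summits lay a median of 21 bases apart and within 50 bases in 80.1%. In the 426 regions with stomach and liver the median was 18 bases and the share 88.3%, and in the 283 with stomach and pancreas 18 bases and 91.9%. The lowest share, 77.8%, was that of the 176 regions with colon and pancreas. Over other regions with 2 to 4 tissues, the share was 88.2% for colon and stomach, 90.2% for stomach and liver, 91.4% for stomach and pancreas and 86.6% for colon and pancreas. It was 79.1% in members and 85.2% in other regions for colon and liver, and 89.1% and 89.9% for pancreas and liver. The share was thus lower in members for 5 of the 6 pairs, by the most for those with colon, and these differences were not tested.

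Within shared regions the order of liver depended on the scale. By relative fold it was higher than stomach in 316 of 426 members with both (74.2%), with a median log2 ratio of stomach to liver of −0.33. It was higher than pancreas in 265 of 384 (69.0%) and than colon in 340 of 532 (63.9%). The same order held in other regions with 2 to 4 tissues, where liver was higher in 74.7%, 70.4% and 68.3%. Liver has the lowest list median of the 4 organs, 7.15, and the folds as deposited were nearly even. By these, liver was higher than stomach in 52.6% of the members with both, than pancreas in 57.0% and than colon in 47.0%. The median log2 ratio to liver moved from −0.33 to −0.05 for stomach and from −0.23 to −0.08 for pancreas, and for colon it turned from −0.17 to 0.02.

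Colon exceeded stomach by relative fold in 302 of 437 members (69.1%), with a median log2 ratio of 0.27, against 58.5% and 0.09 in the other regions. By the folds as deposited the share was 61.8% in members, with a median log2 ratio of 0.17, and 49.0% in the other regions, with −0.01. Of the 6 pairs, colon and stomach showed the widest gap in median log2 ratio between members and other regions.

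The region of all 4 organs with the highest fold lay at chr16:19506892-19508638 (1747 bases). Coordinates are those of the files, on CanFam3.1 according to the submitters' processing notes. Its fold was 17.8 in colon, 16.5 in pancreas, 12.5 in stomach and 9.14 in liver, or 2.19, 2.07, 1.43 and 1.28 times the list medians. Every organ was above its list median, and the −log10 p-value of 114 in pancreas was the highest of that organ's peaks in digestive-only regions. The nearest peak of any other tissue was 802 bases away. Regions are ranked here by the lowest relative fold among their organs.

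The second, chr9:53962739-53963345, had a fold of 12.2 in colon, 9.49 in liver, 8.82 in stomach and 8.09 in pancreas. It and the first were the only regions of 4 organs with every peak above its list median. At chr1:69274529-69274868 the fold was 13.1 in stomach, 11.9 in liver, 9.67 in pancreas and 7.74 in colon. At chr4:28993378-28993851 liver stood out, with a fold of 13.1 against 8.06 in colon, 8.01 in stomach and 7.60 in pancreas.

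Some regions of 4 organs had even peaks and some did not. At chr9:18292503-18292828 the folds lay between 6.55 (colon) and 7.54 (pancreas), and at chr20:3277113-3277424 between 6.16 (pancreas) and 7.15 (stomach). At chr26:16287684-16288196 they were 12.4 in colon and 13.0 in stomach but 7.36 in pancreas and 5.45 in liver. At chr5:58145150-58145923 colon had 13.2, stomach 9.31, pancreas 6.21 and liver 5.15. The last 2 regions thus leaned to the hollow organs.

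Of the next 4 regions, chr8:41465099-41465421 had folds of 8.26 in colon, 8.34 in stomach, 8.01 in pancreas and 4.76 in liver. At chr27:6942594-6943147 liver was the highest with 9.06, and pancreas the lowest with 5.27. At chr35:13951593-13952187 colon had 8.06 and pancreas 5.27, and at chr24:38085343-38085641 all 4 lay between 5.15 and 5.83. Below this rank, the lowest relative fold of a region of 4 organs was under 0.65, where the median over all 60 was 0.543.

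Among regions of 3 organs, chr16:6061135-6061703 led with a fold of 10.3 in stomach, 8.39 in colon and 8.0 in liver, each above its list median. It lay 6133 bases from the nearest peak of another tissue. At chr17:15542110-15542774 pancreas had 9.15, stomach 8.23 and liver 7.38, and at chr27:6939861-6940694 liver had 10.1, pancreas 7.50 and colon 7.16. The latter lay within 2 kb of the region of 4 organs on chromosome 27 named above. At chr2:35016418-35016723 the folds in stomach, pancreas and liver were 7.15, 7.05 and 7.82. At chr6:10645973-10646312 colon had 9.29, stomach 7.10 and liver 5.81, and at chr1:116583366-116583616 stomach had 6.79, pancreas 6.65 and liver 5.77.

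By the lowest relative fold, which is taken over fewer peaks in a pair, the first regions of all belonged to pairs, although the highest colon fold, 17.8, was that of the region of 4 organs on chromosome 16. Colon and stomach at chr4:63635874-63636733 had folds of 15.3 and 17.1, which were 1.87 and 1.96 times the list medians, and 17.1 was the highest stomach fold in any digestive-only region. This pair also had chr12:64648786-64649611, with 11.1 in colon and 12.1 in stomach, and chr20:4907265-4907865, with 10.7 and 12.6. The last of these lay 7500 bases from any peak of another tissue.

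Colon and liver, the most frequent pair, had strong regions too. At chr13:35783158-35784219 the fold was 14.3 in colon and 13.6 in liver, at chr9:6639640-6640103 it was 13.9 and 15.3, and at chr28:32019278-32020154 it was 17.1 and 11.2. The first 2 had a peak of another tissue 181 and 269 bases away, and the last 4397 bases away. Of the 27 members with every peak above its list median, 12 were colon and liver regions, 6 colon and stomach, 4 pancreas and liver and 2 stomach and liver, and the other 3 had more organs. The pairs of pancreas with stomach and of pancreas with colon had none.

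Pancreas and liver led with chr25:11699467-11699949, with a fold of 12.5 in pancreas and 10.2 in liver, and chr25:11692696-11693041, with 9.88 and 9.78. Next in rank, chr18:49972764-49974369, was 1606 bases wide with folds of 8.82 and 9.62. Stomach and liver had 9.66 and 12.3 at chr18:38671782-38672257, 9.22 and 9.88 at chr25:26176709-26177915, and 8.59 and 14.8 at chr10:45189492-45189824. The leading regions of both pairs thus included places on chromosome 25 where several members stood close together.

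By the lowest relative fold, the leading regions of pancreas with stomach or colon came after those of the other pairs, although single pancreas peaks in them were strong. Over all regions of a pair, the median lowest relative fold was 0.562 for colon and liver, 0.549 for pancreas and liver, 0.536 for stomach and pancreas, 0.535 for colon and stomach, 0.523 for stomach and liver and 0.522 for colon and pancreas. Stomach and pancreas reached 8.11 and 12.1 at chr18:15899-16184, near the start of the chromosome, 7.53 and 6.84 at chr30:36891741-36891985, and 7.27 and 6.29 at chr22:37221531-37221767. Colon and pancreas had 6.26 and 15.9 at chr16:17573108-17574146, where pancreas was at 2.01 times its list median and colon below its own. The other leading regions of this pair, chr6:25645226-25645481 and chr5:82616918-82617149, had folds of 5.54 and 5.19 in colon and 6.34 and 5.78 in pancreas.

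Members were mostly scattered, with a median of 247 kb to the nearest other member, but 305 of them (21.0%) lay within 50 kb of another. These formed 131 groups, 23 of at least 3 members and 6 of at least 5. No such counts are given for other regions, so whether members group more than these is not known. The largest group, at chr25:11692696-11744005, had 8 members over 51.3 kb. Of the 13 regions in that span, liver had a peak in 9, pancreas in 10, stomach in 3 and colon in 2, while cerebellum, cerebrum and kidney had peaks in 2, mammary gland and ovary in 1 and lung and spleen in none. No region there had a peak in all 11 tissues.

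The first 5 members of that group were pancreas and liver regions. Their folds in order of position were 9.88, 12.5, 7.28, 7.60 and 5.77 in pancreas and 9.78, 10.2, 15.1, 8.04 and 7.19 in liver, so liver was above its list median in all of them. The widest, chr25:11702647-11704555, covered 1909 bases. Further on the pattern changed: chr25:11737483-11738518 had 12 in pancreas and 2.62 in stomach, and chr25:11738648-11739637 had 14.0 in pancreas, 4.59 in stomach, 4.53 in liver and 3.47 in colon. The last member, chr25:11743678-11744005, had 7.29 in liver and 4.03 in colon. Pancreas folds over 10 thus occurred in both parts of the group, and liver folds over 10 in the first part alone.

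The group at chr4:63632084-63655162 was uniform, with 5 members over 23.1 kb that all had peaks in colon and stomach alone. The folds in stomach were 6.29, 17.1, 12.7, 12.2 and 14.8, and those in colon 4.10, 15.3, 4.07, 5.15 and 4.41. Stomach was above its list median in 4 of the 5 and colon in 1. The span held 2 other regions, 1 with peaks in all 11 tissues. No peak of another tissue lay within 5 kb of any of the 5 members. Colon and stomach share the animal name jj82, so if jj82 is an animal of its own, organ and animal cannot be told apart for this group.

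**Figure D4:**
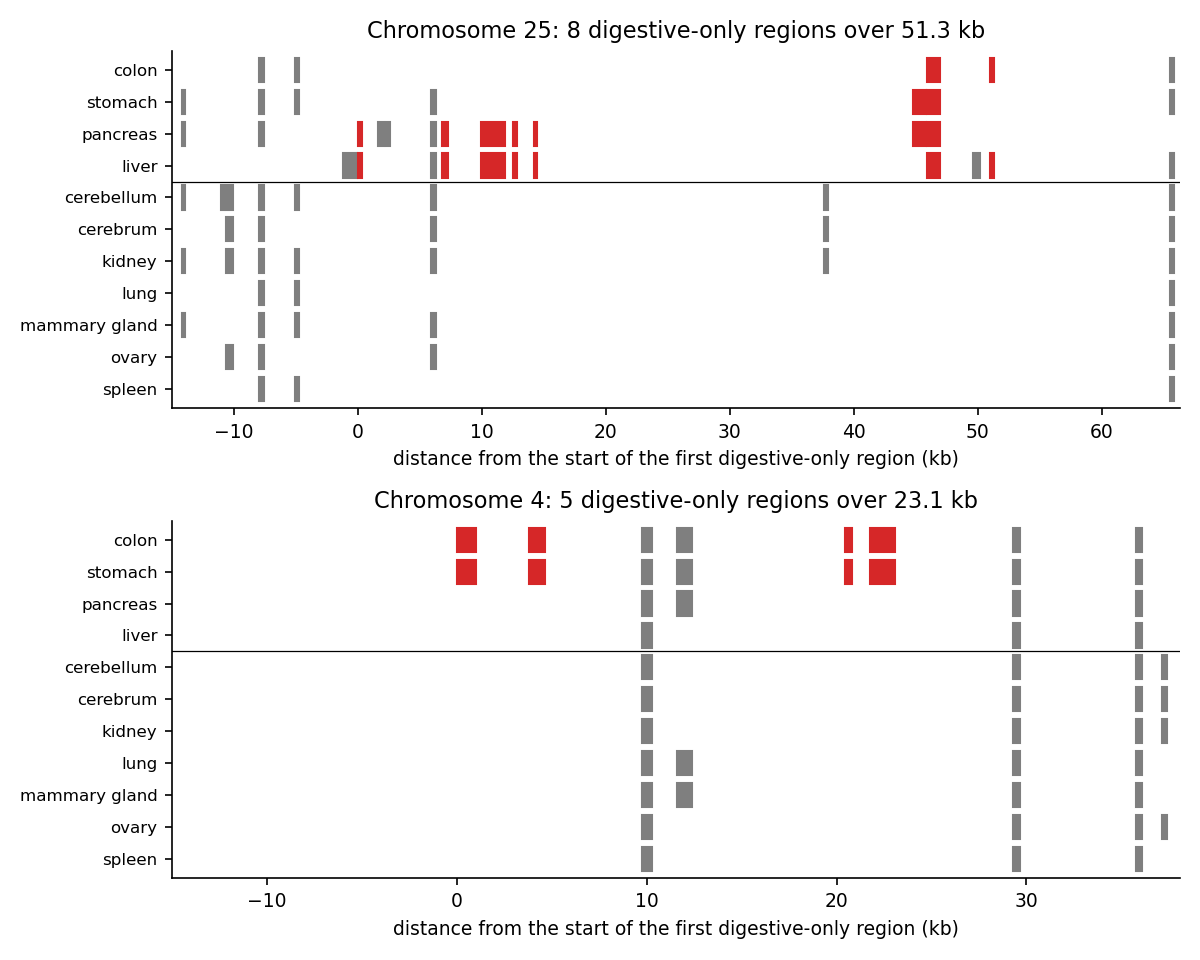
Regions with a peak in each tissue (rows) by distance from the first digestive-only region (horizontal axis, kb) for a group on chromosome 25 (8 members over 51.3 kb) and one on chromosome 4 (5 members over 23.1 kb). Red blocks are digestive-only regions and grey blocks all other regions, drawn at the full width of the merged region in each tissue that has a peak there. The red blocks lie above the horizontal line, in pancreas and liver at the left of the chromosome 25 map and in colon and stomach on chromosome 4.

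At chr25:26176709-26211502, 5 members over 34.8 kb stood in a stretch where lung had a peak in 1 of 9 regions and the other 6 non-digestive tissues in none. Stomach and liver had folds of 9.22 and 9.88 in the first member, and stomach 9.43, liver 6.78 and colon 4.65 in the second, chr25:26178055-26179315. At chr25:26206945-26208422 (1478 bases) pancreas had 13.0, colon 3.82 and stomach 2.89. The remaining groups of at least 5 members lay in peak-rich stretches. There were 6 members among 38 regions at chr27:6931941-6991518, 6 among 72 at chr4:28870689-28993851 and 5 among 56 at chr1:106366694-106493715. Liver had a peak in all 17 members of these last 3 groups. It also had one in most regions there, 36 of 38, 68 of 72 and 43 of 56 in the same order.

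By chromosome, digestive-only regions made up from 0.111% of all regions on chromosome 29 (7 of 6295, 95% Wilson interval 0.0539% to 0.229%) to 0.535% on chromosome 20 (72 of 13453, 0.425% to 0.673%). Chromosome 9 had 0.527% (92 of 17462, 0.430% to 0.646%), chromosome 27 had 0.514% and chromosome 25 had 0.444%, and the median over the 38 autosomes was 0.306%. The order was similar against regions of few tissues. Members were 2.55% of the regions with 2 to 4 tissues on chromosome 20 and 2.54% on chromosome 9, where the median autosome had 1.36% and chromosome 29 had 0.432%. Colon and liver regions were 31 of the 72 members on chromosome 20 (43.1%) and 15 of the 34 on chromosome 13 (44.1%), where members made up 0.306% of all regions, against 22.6% over all autosomes. Members close to each other are not independent, so these intervals are too narrow.

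**Figure D5:**
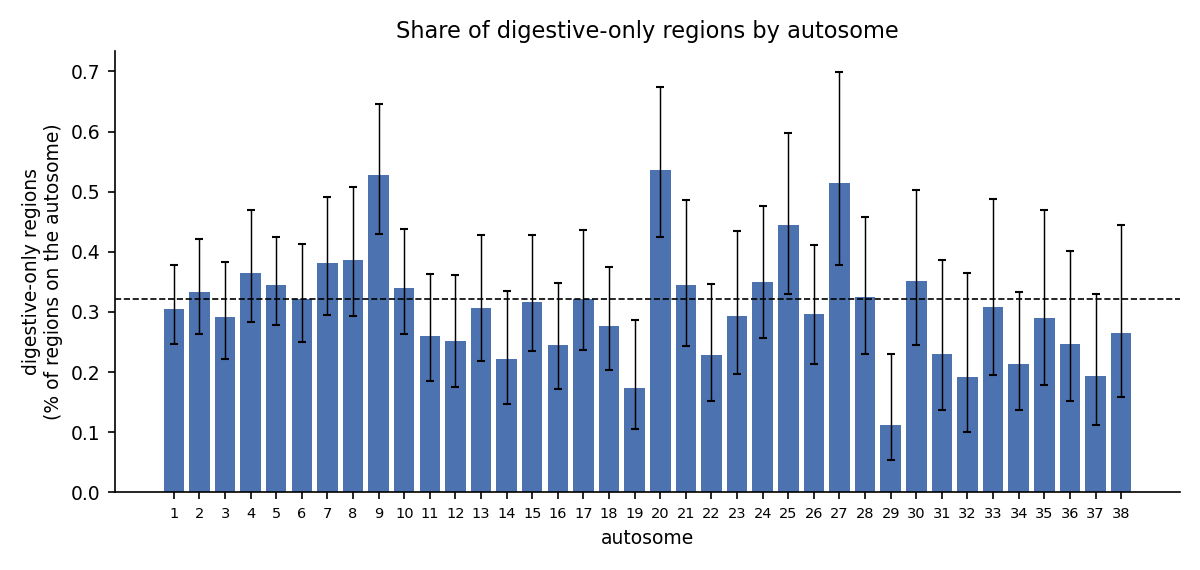
Digestive-only regions as a percent of all regions on each autosome (bars, with 95% Wilson intervals for counting error). The dashed line is the value over all autosomes, 0.322%. Chromosomes 20, 9 and 27 stand above 0.5% and chromosome 29 is the lowest at 0.111%.

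Along the chromosomes, members followed the other regions. After each autosome was cut into 10 equal parts, the first part held 11.8% of the members and 11.6% of all regions, part 5 held 10.1% and 8.43%, and the last part held 12.3% and 14.7%. Members lay a median of 5138 bases from the nearest region with peaks in all 11 tissues, against 6109 bases for the other regions with 2 to 4 tissues. Regions of 1 digestive organ alone had a like median, 5105 bases. The share within 500 bases was 9.86% in members and 10.7% in the other regions with 2 to 4 tissues. Among the pairs, regions of pancreas and liver were the closest to regions with peaks in all 11 tissues, with 2786 bases. Regions of colon and stomach were the farthest, with 9591 bases.

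Peaks of the other tissues were often near. The distance from a member to the nearest peak of the other 7 tissues had a median of 1023 bases (middle 50% from 385 to 2554), and 469 members (32.3%) had such a peak within 500 bases. In 47 members (3.24%) the nearest one was more than 10000 bases away. A missing peak means that none was listed there, not that methylation was absent, since the lists give no signal outside peaks.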

How the data were processed

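MBD-seq peak lists of 11 beagle tissues were used, 1 per tissue. Both MBD libraries of a tissue carry the same list in the labels. Aligner, peak caller, filters and the way libraries were combined are not given in the sources used here. The build is CanFam3.1 per the submitters' processing notes. The deposited files have no header, so the meaning of a column follows from the narrow-peak layout. The deposited signal value was read as a fold, a ratio to a control that no label states. The −log10 p-value of a peak is the authors' deposited value. The summit column gives the distance of the summit from the peak start. Folds, p-values and summits are the authors' own values for single peaks.

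Peaks were merged where they shared at least 1 base. The relative fold is the fold divided by the median of its whole list. Regions named in the text are the 12 of 4 organs, 6 of 3 organs and 3 of each pair with the highest lowest relative fold, and members of the larger groups, which were chosen after their values were seen. Groups join members up to 50 kb apart. Intervals of shares are 95% Wilson intervals for counting error. The members and all lists were chosen with earlier results of these data known. The only gene table at hand was on another assembly and no genome sequence was at hand, so the planned counts of CpGs, motifs, genes and gene lists were not run, and genes and sequences at these positions were not analysed here. The merge and the rule were tested on simulated lists, where all 1021 planted regions were recovered among 20000. Python 3.11.15, numpy 2.4.6, pandas 2.3.3, scipy 1.17.1 and matplotlib 3.10.9 were used.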

Additional observations from a re-analysis of the deposited data

Results flagged for a closer look

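Among the 7 non-digestive tissues, spleen had a share far from the others in regions with peaks in at least 2 digestive organs and 1 further tissue. These made up 0.343% of the autosomal regions of spleen, against 0.0747% to 0.180% in the other 6. The gap between spleen and the next tissue was 0.606 of the whole range, more than Dixon's limit for 7 values. By the number of these regions, 827 in spleen, the gap was 0.400 of the range, under that limit. Chance gives such a value in about 1 of 20 groups, and 8 groups of values were examined, some of them of the members. These regions were picked by the same peak lists as the members, so the limit serves only to point to the value and is no test of a difference between tissues.

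Chromosome X was left out of the rule. It held 19 regions of the same kind among 21367, or 0.0889% (95% Wilson interval 0.0569% to 0.139%), below the 0.322% of the autosomes. Colon and stomach accounted for 6 of them and colon and liver for 4. The number of X copies differs between the animals as labelled, and its part in this difference was not tested.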

How the results depend on the processing

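The number of digestive-only regions, 1450, stayed within 1.5 times with peaks up to 200 bases apart joined and with chromosome X. The same held for coverage of at least 50% of the region and for a clear margin of 500 bases. It also held with equal list sizes and with every list cut to its upper 50% by fold, which gave 1109 regions. The number was 47 when only the digestive peaks had to be in the upper 50% of their list by fold. Most of the 1109 thus met the rule only because the cut also removed weaker peaks of other tissues. Their number does not show that the same regions stayed members. Equal list sizes also removed peaks of other tissues, and the overlap with the 1450 was not counted for either setting. Leaving out 1 list gave from 721 (without liver) to 2284 (without spleen). It gave 843 without colon and 877 without stomach, and with both of these left out, an alternative chosen after seeing the data, 384. The percent of members with colon and stomach alone, 17%, was 21.3% with digestive peaks in the upper 50%, 9.74% with every list cut to its upper 50%, 14.9% with equal list sizes, 14.8% with coverage of 50% and 19.2% with the margin of 500 bases. With 1 list left out it ranged from 14.3% to 48.3% (without liver), and was 26.0% without pancreas. The median relative fold, 0.632, was 1.33 with digestive peaks in the upper 50% and 1.16 with every list cut to its upper 50%. Such peaks are at or above their list median by definition, so a value over 1 was fixed in advance under both cuts. It was 0.673 with equal list sizes, 0.660 without colon and stomach, and from 0.627 to 0.657 with 1 list left out. With folds as deposited, chosen after seeing the data, the median log2 ratio of colon to liver turned from −0.17 to 0.0200, and the other 5 pairs of organs kept their sign. No paired analysis was possible because both libraries of a tissue share 1 list, which leaves no replicate values to pair. Depth is unknown, so peaks missed for lack of reads cannot be counted. Alternatives for CpG content and gene overlap were not run, since no genome of the build was used.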
